A study of Danio rerio with 4 samples.

Results

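The genes of muscle contraction and of muscle calcium handling were followed in RNA from whole zebrafish eyes. They were chosen by symbol: myosin heavy and light chains, myosin-binding proteins, skeletal alpha-actin, troponins, tropomyosins, tropomodulins and leiomodins, alpha-actinins, ryanodine receptors, SERCA calcium pumps, calsequestrins, parvalbumins, creatine kinases and the myoglobin gene mb. The smooth muscle heavy chain gene myh11a was left out of the choice. Where a symbol had several probe sets, the one with the highest mean over the arrays stood for the gene. This gave 105 genes out of 19260 that had a probe set naming 1 gene, and 103 of the 105 had their identifier in RefSeq.

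The study measured eyes of 4 genotypes of zebrafish (Danio rerio) with Affymetrix arrays, to ask how eyes heterozygous at the eys and lrp5 loci together, or homozygous mutant at 1 of them, differ from wildtype eyes. The groups were eys+/-; lrp5+/- fish (double heterozygotes below), lrp5-/- homozygotes, eys-/- homozygotes and wildtype fish, with 1 array each. All were 3.5 months past fertilisation, of mixed sex, and kept on 14 hours of light and 10 hours of dark at 28.5°C. The labels call the tissue eyes and name no dissection of muscle from the globe, and the sources used here do not give the mutant alleles or how many fish supplied RNA to an array. In each comparison 2 arrays were set against each other, so no spread between fish could be estimated and no p-value is given.

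Eye movement in fish, as in other vertebrates, is driven by extraocular muscles that attach to the outside of the globe, and stumps of these muscles can stay on an eye when it is removed. In a muscle fibre, calcium released from the sarcoplasmic reticulum through ryanodine receptors binds troponin, tropomyosin moves on the actin filament, and myosin heads pull. SERCA pumps return the calcium, parvalbumins buffer it in fast fibres, and creatine kinases and myoglobin serve the supply of ATP and oxygen. Several families have members outside muscle as well: non-muscle myosins, SERCA pumps and mitochondrial creatine kinases are used in the retina, the lens, vessels and epithelia.

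A signal was treated as measurable at a log2 value of 6.57, the median over the 4 arrays of all probe sets that name 1 gene. Of the 105 genes, 45 reached this level on at least 1 array and 37 on all 4. The other 60 read between 2.99 and 6.54 everywhere. Of all 19260 genes, 10743 reached the level on at least 1 array, a larger share than among the 105. In each comparison a gene was used where the higher of its 2 arrays reached the level, so a gene can enter through the array on which it is high. Signals are on the log2 scale, differences are between 2 arrays, and levels of different probe sets are not comparable. A difference was counted past 1.5-fold, and the share of all genes past the same fold is given beside the count it is read against.

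The array medians over all probe sets were 5.03 to 5.06, and the correlation between arrays across the 105 genes was 0.975 to 0.983, against 0.978 to 0.983 over all 75212 probe sets (genes are not independent replicates). The only yardstick for a difference was the spread over all genes within a comparison, a robust SD of 0.226 for double heterozygote against wildtype eyes, 0.198 for lrp5-/- against wildtype, 0.197 for eys-/- against wildtype and 0.217 for lrp5-/- against eys-/-. This spread is not a replicate error. The probe set of lrp5 read 6.92 in double heterozygote eyes, 7.17 in lrp5-/- eyes, 7.27 in eys-/- eyes and 7.39 in wildtype eyes, so the lowest reading was not that of the homozygote. Where its probes lie relative to the mutation was not stated, so this checks no label, and eys is named by no probe set used here.

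Some defining skeletal muscle genes were measurable in these eyes. Of 21 defining skeletal muscle genes outside the 105, 19 were named on the array, and 9 of them reached the level in double heterozygote eyes, 9 in lrp5-/- eyes, 10 in eys-/- eyes and 9 in wildtype eyes, among them ttn.1, ttn.2, neb and ldb3a. Their summed linear signal was 1819 in double heterozygote eyes, 1717 in lrp5-/- eyes, 1946 in eys-/- eyes and 1959 in wildtype eyes. The level is a median, and 10743 of all 19260 genes reached it on some array. The marker counts alone therefore do not set muscle genes apart from other genes. The slow muscle heavy chain gene smyhc1 stayed at 4.32 to 4.66 on the 4 arrays. Of 6 cardiac marker genes, among them myl7, myh6 and tnnt2a, 0 reached the level on any array. Of 9 smooth muscle and pericyte genes, 8 reached the level on each mutant array and 7 on the wildtype array.

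The genes were sorted by where they are known to be used. The classes were set with earlier results of these data known, so differences between them are descriptions only. A class does not exclude use elsewhere in the eye. The class of slow skeletal muscle or heart holds ryr2a, ckmt2a and ckmt2b, of families also used by neurons or in the retina. Over all genes, 10743 of 19260 reached the level on some array. Of 39 genes of fast skeletal muscle, 17 did so, as did 11 of 34 genes of slow skeletal muscle or heart. Of 23 genes of smooth muscle, non-muscle cells or broad use, 16 did so. The remaining genes were tpmt.1, tpmt.2 and tnni3k, enzymes caught by the spelling of their symbols, of which tpmt.1 and tnni3k lay below the level, and 6 others that were put in no class and lay below the level. Between lrp5-/- and eys-/- eyes 16 fast genes were measured, and those 16 were lower in lrp5-/- eyes, with a median of -0.64. Among them pvalb3 entered only through its eys-/- reading, and the 15 genes with both arrays at the level had a median of -0.55. Over all measured genes 49.0% were lower in lrp5-/- eyes and the median was 0.01.

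**Figure D1:**
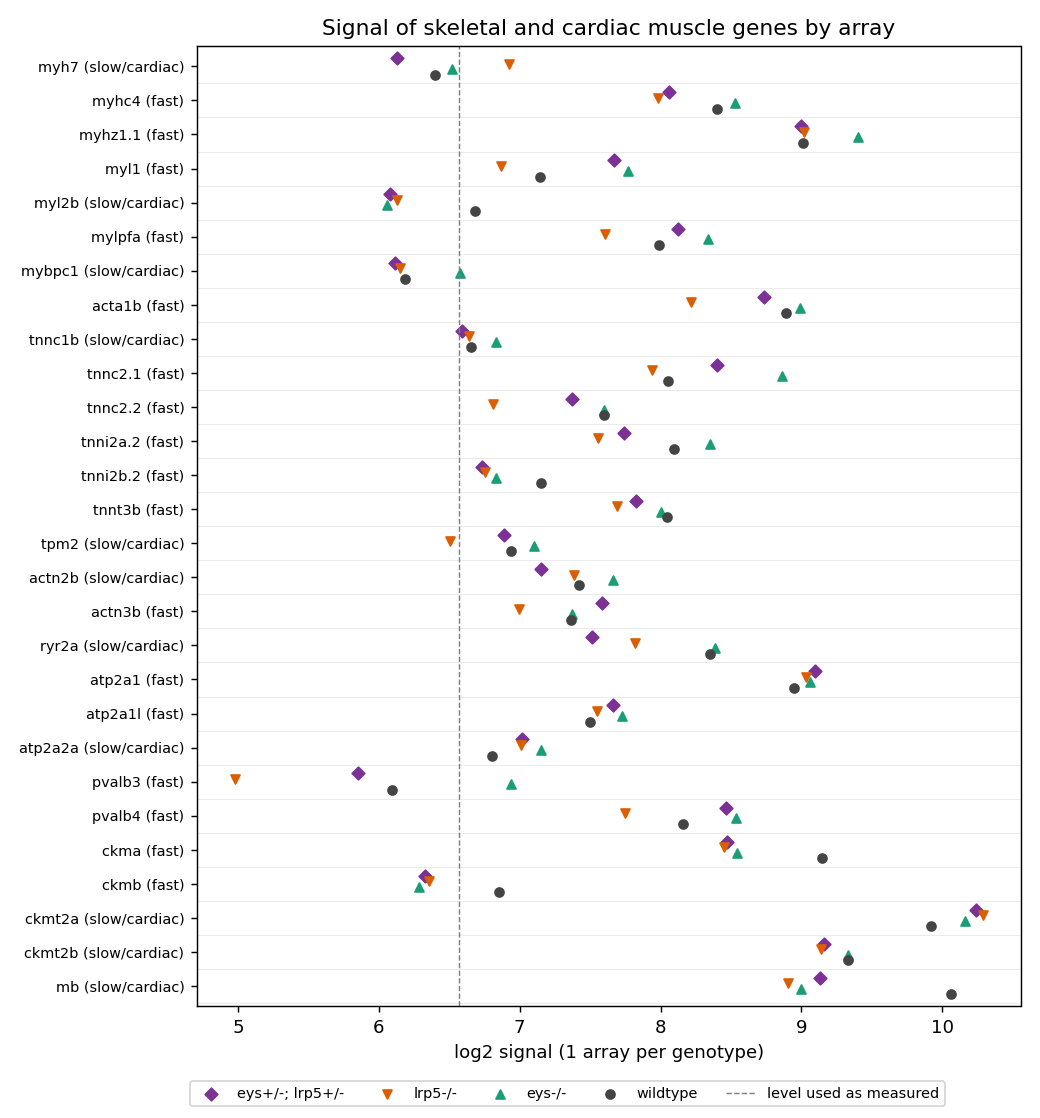
Log2 signal (horizontal axis) of the 17 fast and 11 slow or cardiac genes that reached the level on some array, 1 point per genotype and gene; the dashed line is the level of 6.57. For most fast genes the lrp5-/- point lies at the left and the eys-/- point to its right, and for mb, ckma, ckmb and myl2b the wildtype point stands to the right of the other 3.

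Across all classes together the median differences from wildtype lay within 0.17 of 0. In double heterozygote eyes 41 genes were measured, 1 was higher by 1.5-fold or more and 4 were lower, where 3.91% of all genes were higher and 2.25% lower. The median of the 41 was 0.10 against 0.00 over all genes. It was -0.02 with no filter on level, and -0.15 over the fast and the slow or cardiac classes. In lrp5-/- eyes 0 of 43 measured genes were higher and 5 were lower past 1.5-fold, where 2.07% of all genes were higher and 1.19% lower. The median there was -0.03, and -0.38 over the fast and the slow or cardiac classes. In eys-/- eyes 3 of 44 measured genes were higher and 4 lower, where 1.58% of all genes were higher and 1.7% lower, with a median of 0.16 against -0.01 over all genes. Past 2-fold, 0 genes were higher in any of these comparisons and 0, 1 and 1 were lower in double heterozygote, lrp5-/- and eys-/- eyes. The background past 2-fold was 1.23% higher and 0.489% lower in double heterozygote eyes, 0.393% and 0.278% in lrp5-/- eyes, and 0.326% and 0.307% in eys-/- eyes. These comparisons share the wildtype array, so a deviating wildtype reading enters all of them.

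When lrp5-/- eyes were set against eys-/- eyes, 43 genes were measured, 2 were higher by 1.5-fold or more and 10 were lower, where 3.38% of all genes were higher and 2.06% lower. The 10 lower genes were 8 of the fast class, with tpm2 of the slow class and myl12.2, a non-muscle light chain. The 2 higher genes were myl9b, a smooth muscle and non-muscle light chain, and tpmt.2, a thiopurine methyltransferase and no muscle gene. The reading of tpmt.2 was 7.17 in double heterozygote eyes, 6.98 in lrp5-/- eyes, 6.34 in eys-/- eyes and 6.89 in wildtype eyes. Its eys-/- reading lay below the level, so tpmt.2 entered here only through its lrp5-/- reading. The median of the 43 was -0.18, with 10 positive and 33 negative differences. Past 2-fold the counts were 0 higher and 1 lower, against 0.919% and 0.507% of all genes. The lower one was pvalb3, which reached the level in eys-/- eyes only and read 4.98, below it, in lrp5-/- eyes.

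**Figure D2:**
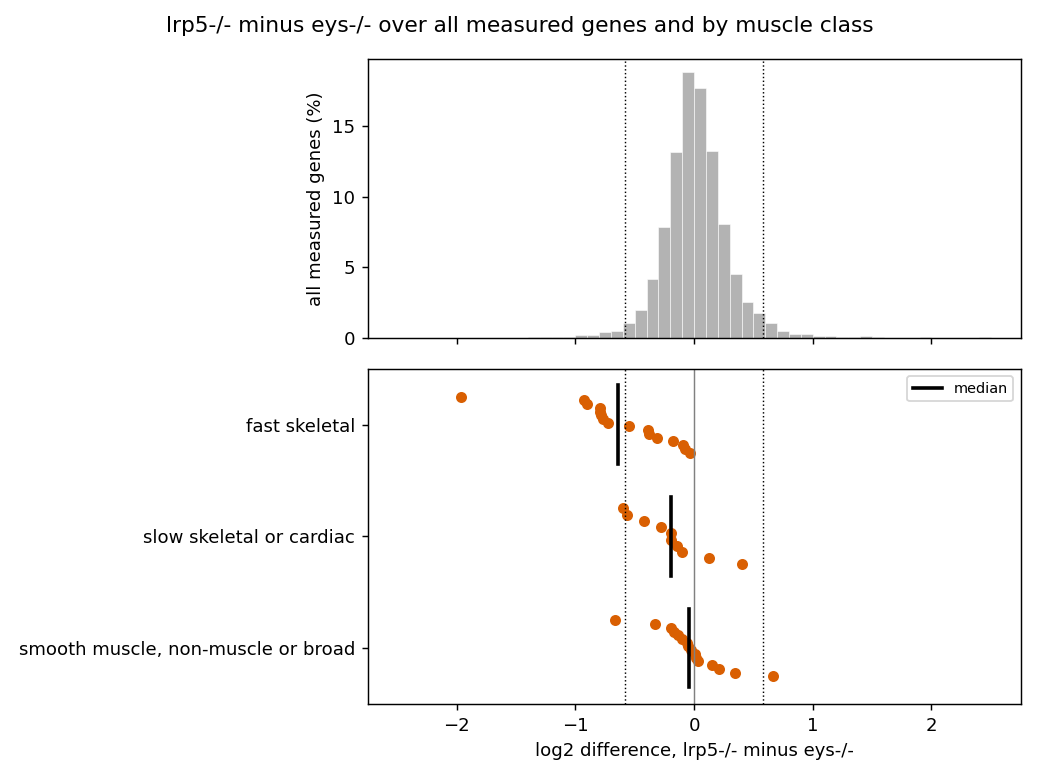
Log2 difference between lrp5-/- and eys-/- eyes (horizontal axis) for all 10446 measured genes as a histogram and for the measured muscle genes by class as points with their medians. The 16 fast genes lie between -1.96 and -0.03. The 16 genes of smooth muscle, non-muscle or broad use lie on both sides of 0. The -1.96 is pvalb3, which reached the level in eys-/- eyes only, and the classes were set with earlier results known.

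The fast class is described first. Against eys-/- eyes, 8 of the 16 measured genes were lower by 1.5-fold or more in lrp5-/- eyes and 0 were higher, where 2.06% of all genes were lower and 3.38% higher. Against wildtype eyes, lrp5-/- eyes had 3 of 16 lower and 0 higher, where 1.19% of all genes were lower and 2.07% higher, with 13 negative differences and a median of -0.39. In eys-/- eyes 3 of 17 were higher and 1 lower, where 1.58% of all genes were higher and 1.7% lower, with 12 positive differences and a median of 0.13. Double heterozygote eyes had 1 of 16 lower and 0 higher, where 2.25% of all genes were lower and 3.91% higher, with a median of -0.08. The genes pvalb3 and ckmb reached the level on 1 array each and entered through it. With both arrays required to reach the level, 7 of 15 fast genes were lower in lrp5-/- than in eys-/- eyes past 1.5-fold. There were 15 negative differences there and a median of -0.55. Under the same filter 2 of 15 were higher in eys-/- than in wildtype eyes past 1.5-fold. The share of all genes was not worked out under that filter, so these counts have no background. Of the 17 fast genes that reached the level, lrp5-/- eyes gave the lowest reading for 12, against 21.1% of all genes that did so, and eys-/- eyes gave the highest reading for 10, against 25.7% of all genes. With no filter on level, 30 of the 39 fast genes were lower in lrp5-/- than in eys-/- eyes, against 50.1% of all genes with no filter.

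In an extract of whole eyes, fewer muscle fibres and less RNA of these genes per fibre cannot be told apart. The summed linear signal of the 39 fast genes was 5415 in double heterozygote eyes, 4580 in lrp5-/- eyes, 6224 in eys-/- eyes and 5647 in wildtype eyes. Neighbouring tissues also varied between the arrays. Genes of fibrous tissue, bone and cartilage (20 of 22 named) summed to 10370 in double heterozygote eyes, 8080 in lrp5-/- eyes, 8765 in eys-/- eyes and 6168 in wildtype eyes. The highest double heterozygote reading among them was that of kera, 11.74 against 10.01 in wildtype eyes. A linear sum gives such a gene the most weight. Genes of surface epithelium (13 of 13 named) summed to 8399 in double heterozygote eyes, 9763 in lrp5-/- eyes, 10546 in eys-/- eyes and 7941 in wildtype eyes. Between lrp5-/- and eys-/- eyes both sums ran the same way as that of the fast genes, lower in lrp5-/- eyes. In that comparison 8 of 13 measured genes of fibrous tissue, bone and cartilage were negative, with a median of -0.26. For surface epithelium 8 of 13 were negative, with a median of -0.05. Sums of rod and adipose genes were also lower in lrp5-/- than in eys-/- eyes. The lens sum was higher in lrp5-/- eyes, 29622 against 28533, and so was that of pigment cells, 10375 against 9533. Sums of red blood cell, nerve glia and ribosomal protein genes were higher as well. Gene by gene, lens and nerve glia did not follow their sums. The lens had 4 positive and 6 negative differences and a median of -0.04, and nerve glia 2 and 3 with a median of -0.07. Medians were 0.18 for pigment cells, 0.17 for red blood cells, 0.10 for ribosomal protein genes and -0.11 for rods. Against wildtype eyes, the fibrous and epithelial sums were higher in lrp5-/- eyes, while the fast gene sum was lower. The part of these tissues in the fast gene differences was not tested. How much tissue around the globe each extract held was not tested.

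In RefSeq, assembly GRCz12tu, acta1b and actn1 lie on the chromosome of eys, and 12 of the 105 genes lie on that of lrp5, of which tnni2a.2 and ckmt1 reached the level. Without the genes on these chromosomes, 14 fast genes were measured between lrp5-/- and eys-/- eyes, 14 were lower, 6 of them past 1.5-fold, and the median was -0.47. Over all measured genes 49.0% were lower there, and 2.06% were lower past 1.5-fold. The 14 still include pvalb3, which entered only through its eys-/- reading.

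Myosin is the motor of contraction, a pair of heavy chains carrying essential and regulatory light chains. Of 13 heavy chain genes 7 reached the level, and 0 of those passed 1.5-fold in any comparison. Over all genes, 1.19% to 3.91% passed it in a given direction and comparison, and for so few genes 0 lies near that share. The fast heavy chain gene myhc4 read 8.06 in double heterozygote eyes, 7.98 in lrp5-/- eyes, 8.53 in eys-/- eyes and 8.40 in wildtype eyes. Its lrp5-/- minus eys-/- difference was -0.55, with both heterozygote and lrp5-/- readings under the other 2. The fast gene myhz1.1 read 9.00 in double heterozygote eyes, 9.02 in lrp5-/- eyes, 9.40 in eys-/- eyes and 9.01 in wildtype eyes, so that only the eys-/- array stood apart. Fast heavy chain genes are near-identical copies, and signal of one copy on the probes of another was not tested.

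RefSeq lists vmhc and smyhc3 as synonyms of the slow or cardiac heavy chain gene myh7. The array annotation names smyhc3 apart, on a probe set that read 3.86 to 4.12. Readings of myh7 were 6.13 in double heterozygote eyes, 6.92 in lrp5-/- eyes, 6.52 in eys-/- eyes and 6.40 in wildtype eyes. Thus myh7 was above the level only in lrp5-/- eyes, 0.52 over wildtype and 0.41 over eys-/- eyes. It entered comparisons only through that high reading, so its direction makes no contrast with the fast genes. A further probe set under the symbol myh7 carries another gene identifier, so it is no second reading of this gene. It lay below the level and differed by 0.23 between lrp5-/- and wildtype eyes and by 0.00 between lrp5-/- and eys-/- eyes. The non-muscle heavy chain genes myh9a, myh9b, myh10 and myh14, which serve cell shape and division, differed from wildtype by -0.14 to 0.35. Among them myh10 read 8.83 in double heterozygote eyes, 9.10 in lrp5-/- eyes, 9.15 in eys-/- eyes and 8.97 in wildtype eyes, a narrow spread.

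Of 14 light chain genes 6 reached the level. The gene myl1, which encodes the essential light chain of fast muscle, read 7.67 in double heterozygote eyes, 6.87 in lrp5-/- eyes, 7.77 in eys-/- eyes and 7.14 in wildtype eyes. The lrp5-/- reading was the lowest and lay 0.90 below that of eys-/- eyes, a 1.87-fold difference, while eys-/- eyes were 0.63 above wildtype. The fast regulatory light chain gene mylpfa gave 8.12 in double heterozygote eyes, 7.61 in lrp5-/- eyes, 8.34 in eys-/- eyes and 7.99 in wildtype eyes. It had the same array lowest and the same array highest, with a lrp5-/- minus eys-/- difference of -0.73.

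The gene myl2b, a regulatory light chain whose mammalian counterpart serves slow and ventricular muscle, read 6.08 in double heterozygote eyes, 6.13 in lrp5-/- eyes, 6.06 in eys-/- eyes and 6.69 in wildtype eyes. It reached the level, and so entered comparisons, only through wildtype eyes, and the 3 mutant arrays lay within 0.07 of each other. Among light chains of smooth muscle and other cells, myl9b read 8.07 in double heterozygote eyes, 8.35 in lrp5-/- eyes, 7.68 in eys-/- eyes and 8.42 in wildtype eyes. The eys-/- array was the low one for myl9b, 0.74 below wildtype, where the lrp5-/- array was the low one for 12 of the 17 fast genes. The non-muscle gene myl12.2 read 7.81 in double heterozygote eyes, 7.66 in lrp5-/- eyes, 8.33 in eys-/- eyes and 8.34 in wildtype eyes, with lrp5-/- eyes 0.68 below wildtype. Its relative myl12.1 varied little and read 9.81 in double heterozygote eyes, 9.82 in lrp5-/- eyes, 9.85 in eys-/- eyes and 9.93 in wildtype eyes.

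Myosin-binding proteins bind myosin in the thick filament, and 1 of the 5 genes reached the level. This was mybpc1, the slow muscle form, which read 6.12 in double heterozygote eyes, 6.15 in lrp5-/- eyes, 6.57 in eys-/- eyes and 6.19 in wildtype eyes, at the level in eys-/- eyes only. The fast-muscle genes mybpha and mybphb stayed below it, at 5.89 to 6.26 and 5.82 to 6.53. Skeletal alpha-actin forms the thin filament. Its gene acta1b read 8.74 in double heterozygote eyes, 8.22 in lrp5-/- eyes, 8.99 in eys-/- eyes and 8.89 in wildtype eyes. The lrp5-/- array stood below the other 3, by 0.67 from wildtype and by 0.77 from eys-/- eyes. Its partner acta1a lay below the level, with 5.03 in double heterozygote eyes, 5.11 in lrp5-/- eyes, 5.26 in eys-/- eyes and 5.60 in wildtype eyes.

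Troponin is the calcium switch of the thin filament, with a calcium-binding subunit C, an inhibitory subunit I and a tropomyosin-binding subunit T. Of 24 troponin genes 6 reached the level, and those 6 were lower in lrp5-/- than in eys-/- eyes, with a median of -0.55 and 3 past 1.5-fold, where 2.06% of all genes were lower. The fast subunit C gene tnnc2.1 read 8.40 in double heterozygote eyes, 7.94 in lrp5-/- eyes, 8.87 in eys-/- eyes and 8.06 in wildtype eyes. The eys-/- array was the high one, 0.81 above wildtype and 0.92 above lrp5-/- eyes. For the related gene tnnc2.2 the readings were 7.37 in double heterozygote eyes, 6.81 in lrp5-/- eyes, 7.60 in eys-/- eyes and 7.60 in wildtype eyes. Here the lrp5-/- array was the low one, and its differences from eys-/- and from wildtype eyes were both -0.79.

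The fast subunit I gene tnni2a.2 read 7.74 in double heterozygote eyes, 7.56 in lrp5-/- eyes, 8.35 in eys-/- eyes and 8.10 in wildtype eyes, again with lrp5-/- eyes lowest and eys-/- eyes highest, 0.79 apart. Its relatives tnni2a.1, tnni2a.3 and tnni2a.4 lay below the level. The fast subunit I gene tnni2b.2 followed another order, with 6.73 in double heterozygote eyes, 6.76 in lrp5-/- eyes, 6.83 in eys-/- eyes and 7.15 in wildtype eyes. All mutant readings lay together and under wildtype, by 0.32 to 0.42. The fast subunit T gene tnnt3b read 7.82 in double heterozygote eyes, 7.69 in lrp5-/- eyes, 8.01 in eys-/- eyes and 8.04 in wildtype eyes, a lrp5-/- minus eys-/- difference of -0.31. The slow subunit C gene tnnc1b differed by no more than 0.20 between any of the pairs compared.

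Tropomyosin lies along actin, and tropomodulins cap the filament. Of 6 tropomyosin genes 2 reached the level. The gene tpm2 gave 6.89 in double heterozygote eyes, 6.51 in lrp5-/- eyes, 7.11 in eys-/- eyes and 6.94 in wildtype eyes. It lay just under the level in lrp5-/- eyes alone, 0.60 below eys-/- and 0.43 below wildtype eyes. The broadly used tpm3 differed from wildtype by 0.02 to 0.13, and read 6.77 in double heterozygote eyes, 6.65 in lrp5-/- eyes, 6.75 in eys-/- eyes and 6.63 in wildtype eyes. Another broadly used gene, tpm4b, stayed below the level at 6.14 to 6.54. Of 8 tropomodulin and leiomodin genes 1 reached the level, tmod2, whose mammalian counterpart is neuronal, and it read 8.20 in double heterozygote eyes, 8.11 in lrp5-/- eyes, 8.10 in eys-/- eyes and 8.03 in wildtype eyes. The skeletal muscle gene tmod4 and the leiomodin gene lmod2b stayed at 5.95 to 6.34 and 5.30 to 5.91. Alpha-actinins cross-link actin at the Z-disc, and 3 of 4 genes reached the level. The fast-muscle gene actn3b read 7.59 in double heterozygote eyes, 6.99 in lrp5-/- eyes, 7.37 in eys-/- eyes and 7.37 in wildtype eyes, with the lrp5-/- array low by 0.37 from wildtype. The Z-disc gene actn2b read 7.15 in double heterozygote eyes, 7.39 in lrp5-/- eyes, 7.66 in eys-/- eyes and 7.42 in wildtype eyes, the eys-/- array being the highest. The cytoskeletal gene actn1 differed between lrp5-/- and eys-/- eyes by -0.17.

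**Figure D3:**
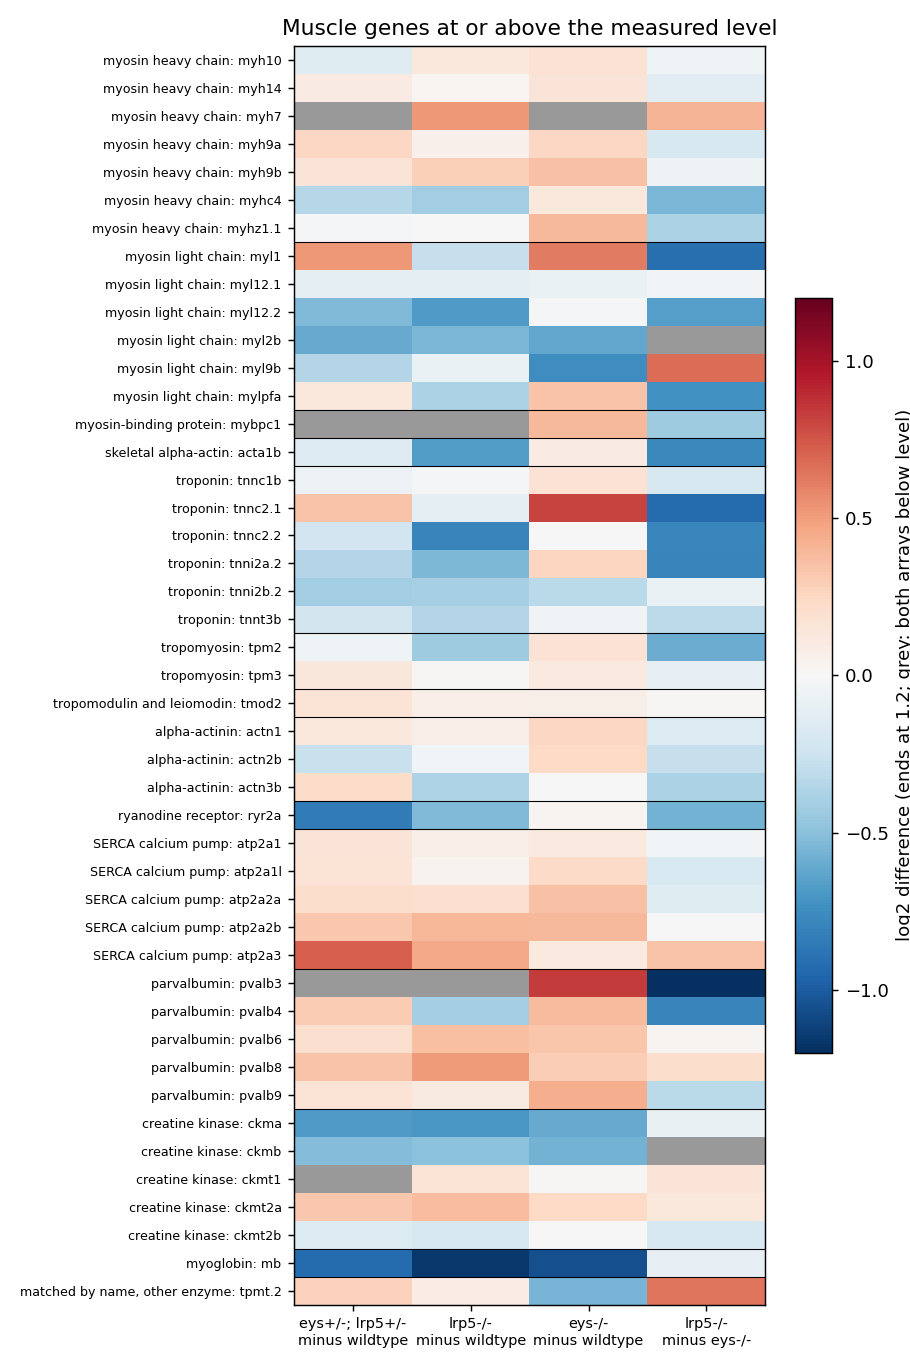
Log2 differences (colour; red higher, blue lower in the genotype named before minus) of each gene that reached the level on some array (vertical axis, by role) in the 4 comparisons (horizontal axis), with grey where both arrays lay below the level. The right-hand column is blue for most sarcomere genes, mb and ckma are blue in the other 3 columns, and the pvalb3 cell of -1.96 lies past the colour end of 1.2.

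Calcium handling genes were described by their order in the calcium cycle, from release to uptake and buffering. The ryanodine receptor gene ryr2a, whose mammalian counterpart is the calcium release channel of heart and also of neurons, was the 1 of 4 to reach the level. It read 7.52 in double heterozygote eyes, 7.82 in lrp5-/- eyes, 8.39 in eys-/- eyes and 8.35 in wildtype eyes. Double heterozygote eyes were the lowest, 0.84 under wildtype, and lrp5-/- eyes lay 0.53 under wildtype. The skeletal muscle receptor genes ryr1a and ryr1b stayed below the level, at 5.36 to 5.87 and 6.01 to 6.22. Calsequestrin is the calcium store protein of the sarcoplasmic reticulum, and 0 of its 3 genes reached the level, with 5.80 to 6.39 for casq1a, 5.83 to 6.25 for casq1b and 5.35 to 6.01 for casq2.

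SERCA pumps return calcium to the reticulum, and the 5 genes of the family all reached the level on every array. The fast skeletal pump gene atp2a1 read 9.10 in double heterozygote eyes, 9.03 in lrp5-/- eyes, 9.06 in eys-/- eyes and 8.95 in wildtype eyes. Its readings thus spanned a narrow range, and lrp5-/- and eys-/- eyes differed by -0.03, the smallest difference among the measured fast genes. Its relative atp2a1l read 7.66 in double heterozygote eyes, 7.55 in lrp5-/- eyes, 7.73 in eys-/- eyes and 7.50 in wildtype eyes. The slow muscle and heart gene atp2a2a read 7.01 in double heterozygote eyes, 7.01 in lrp5-/- eyes, 7.15 in eys-/- eyes and 6.80 in wildtype eyes. Its broadly used relative atp2a2b read 7.71 in double heterozygote eyes, 7.78 in lrp5-/- eyes, 7.77 in eys-/- eyes and 7.38 in wildtype eyes. The wildtype array was the lowest for each of these genes, by up to 0.40 for atp2a2b, and the 3 comparisons share that array. The gene atp2a3, whose mammalian counterpart is the pump of non-muscle cells, read 8.99 in double heterozygote eyes, 8.73 in lrp5-/- eyes, 8.39 in eys-/- eyes and 8.27 in wildtype eyes. Double heterozygote eyes were the highest, 0.72 above wildtype, the 1 gene of the 41 measured that passed 1.5-fold upward there.

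Parvalbumins are calcium buffers, abundant in fast fibres and also present in neurons and sensory cells, and 5 of 8 genes reached the level. The gene pvalb3 read 5.85 in double heterozygote eyes, 4.98 in lrp5-/- eyes, 6.94 in eys-/- eyes and 6.09 in wildtype eyes. The eys-/- reading was the only one above the level, and pvalb3 entered comparisons through it. Its differences of -1.96 between lrp5-/- and eys-/- eyes and 0.84 between eys-/- and wildtype eyes therefore rest on a reading below the level on the other side. The gene pvalb4 gave 8.46 in double heterozygote eyes, 7.75 in lrp5-/- eyes, 8.53 in eys-/- eyes and 8.16 in wildtype eyes. Again lrp5-/- eyes were the lowest, by 0.79 from eys-/- eyes, while a further pvalb4 probe set that read below the level gave -0.36. Among the parvalbumins of broader use, pvalb6 read 9.16 in double heterozygote eyes, 9.33 in lrp5-/- eyes, 9.30 in eys-/- eyes and 8.97 in wildtype eyes. RefSeq also lists pvalb8 and pvalb9 under oncomodulin symbols, named for a parvalbumin relative of sensory hair cells in mammals. The gene pvalb8 read 7.42 in double heterozygote eyes, 7.58 in lrp5-/- eyes, 7.37 in eys-/- eyes and 7.07 in wildtype eyes. The gene pvalb9 read 7.48 in double heterozygote eyes, 7.43 in lrp5-/- eyes, 7.76 in eys-/- eyes and 7.32 in wildtype eyes. For pvalb6, pvalb8 and pvalb9 the lrp5-/- array was not the low one, unlike for pvalb3 and pvalb4.

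Creatine kinases regenerate ATP, in the cytosol of muscle through ckma and ckmb and in mitochondria through the ckmt genes. All 5 genes reached the level on some array. The gene ckma read 8.47 in double heterozygote eyes, 8.45 in lrp5-/- eyes, 8.55 in eys-/- eyes and 9.15 in wildtype eyes. The wildtype array was high and the other 3 lay within 0.09, with differences from wildtype of -0.68 in double heterozygote, -0.70 in lrp5-/- and -0.60 in eys-/- eyes. For ckmb the readings were 6.33 in double heterozygote eyes, 6.36 in lrp5-/- eyes, 6.28 in eys-/- eyes and 6.85 in wildtype eyes, with only wildtype above the level, so that ckmb entered comparisons through its wildtype reading. The mitochondrial gene ckmt2a ran the other way, at 10.24 in double heterozygote eyes, 10.29 in lrp5-/- eyes, 10.16 in eys-/- eyes and 9.92 in wildtype eyes. The wildtype reading of ckmt2a was thus the lowest, by up to 0.37. Another mitochondrial gene, ckmt2b, read 9.16 in double heterozygote eyes, 9.14 in lrp5-/- eyes, 9.33 in eys-/- eyes and 9.33 in wildtype eyes. The broadly used ckmt1 lay at the level, and read 6.53 in double heterozygote eyes, 6.74 in lrp5-/- eyes, 6.59 in eys-/- eyes and 6.57 in wildtype eyes. Both differed from wildtype by less than 0.20.

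Myoglobin binds oxygen in slow and oxidative fibres and in heart. Its gene mb read 9.13 in double heterozygote eyes, 8.90 in lrp5-/- eyes, 9.00 in eys-/- eyes and 10.06 in wildtype eyes. The wildtype array stood alone, and mb was 1.90-fold lower in double heterozygote eyes, 2.23-fold lower in lrp5-/- eyes and 2.08-fold lower in eys-/- eyes. It was the 1 gene past 2-fold in the lrp5-/- and in the eys-/- comparison with wildtype. Between lrp5-/- and eys-/- eyes it differed by -0.10. Since the 3 comparisons share the wildtype array, they are 1 observation of a high wildtype reading of mb and of ckma. Set against the 3 remaining arrays averaged together, and no longer against wildtype alone, mb differed by -0.19 in double heterozygote, -0.49 in lrp5-/- and -0.36 in eys-/- eyes.

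The slow or cardiac class as a whole, to which mb belongs, had 0 of 9 measured genes higher and 3 lower in double heterozygote eyes, where 3.91% of all genes were higher and 2.25% lower, with a median of -0.17. In lrp5-/- eyes 0 of 10 were higher and 1 lower, where 2.07% of all genes were higher and 1.19% lower, with a median of -0.11. In eys-/- eyes 0 of 10 were higher and 2 lower, where 1.58% of all genes were higher and 1.7% lower, with a median of 0.17. Between lrp5-/- and eys-/- eyes 8 of 10 were negative and 1 was lower past 1.5-fold, where 2.06% of all genes were lower, with a median of -0.19. In these 4 comparisons in turn, 1, 3, 2 and 3 of the measured genes had their lower reading below the level. They were myl2b, at the level in wildtype eyes only, mybpc1 in eys-/- eyes only, myh7 in lrp5-/- eyes only, and tpm2. The lower genes past 1.5-fold included myl2b in double heterozygote and in eys-/- eyes, and tpm2 between lrp5-/- and eys-/- eyes. In double heterozygote eyes ryr2a was another, a gene whose mammalian counterpart also serves neurons. The class of smooth muscle, non-muscle or broad use had 11 of 15 positive differences from wildtype in double heterozygote eyes, 13 of 16 in lrp5-/- eyes and 13 of 16 in eys-/- eyes, with medians of 0.15, 0.10 and 0.17. Over all measured genes 47.1% to 50.3% of the differences from wildtype were positive. The 3 comparisons share the wildtype array, so these counts are not independent. That array read lowest for 11 of the 16 genes, against 23.6% of all genes that reached the level. Between lrp5-/- and eys-/- eyes the smooth muscle, non-muscle or broad class had 7 positive and 9 negative differences and a median of -0.04. The fast class had a median of -0.64 there.

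Muscle genes outside the 105 were read from lists of known muscle components. The shares of all genes past 1.5-fold, higher and lower, beside which their counts stand were 3.91% and 2.25% in double heterozygote eyes, 2.07% and 1.19% in lrp5-/- eyes, 1.58% and 1.7% in eys-/- eyes, and 3.38% and 2.06% between lrp5-/- and eys-/- eyes. In lists this short, a share of that size comes to less than 1 gene. Among genes of giant proteins, the Z-disc and its scaffold, 0 of 12 measured genes passed 1.5-fold between lrp5-/- and eys-/- eyes, 9 of the 12 were negative and the median was -0.04. The largest difference there was in desma, encoding the muscle intermediate filament desmin, at -0.51. Only the eys-/- reading of desma, 6.67, reached the level, so desma entered through it, and its lrp5-/- reading was 6.16. The giant protein genes ttn.1, ttn.2 and neb gave -0.40, -0.21 and -0.24. None of the genes of this list passed 1.5-fold in the other comparisons. In the triad, where the surface membrane meets the calcium store, 1 of 9 genes was higher and 0 lower between lrp5-/- and eys-/- eyes. This was slc8a3, a sodium-calcium exchanger also used by neurons, at 0.98, and the median was -0.01. In the comparisons with wildtype 0 of 8 or 9 measured triad genes passed 1.5-fold. Of the 22 named triad genes, trdn, cacna1sa, cacna1sb and stac3 were among those below the level on every array.

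Genes of myosin assembly and muscle protein turnover were few, with 2 to 4 measured, 1 higher and 1 lower in eys-/- against wildtype eyes, and 1 lower in lrp5-/- against eys-/- eyes. The muscle ubiquitin ligase gene fbxo32 read 6.82 in double heterozygote eyes, 6.74 in lrp5-/- eyes, 6.55 in eys-/- eyes and 7.18 in wildtype eyes, with the wildtype array high, as for mb and ckma. Its eys-/- reading lay just under the level. The chaperone gene hsp90aa1.1, which folds myosin in zebrafish, read 5.90 in double heterozygote eyes, 5.99 in lrp5-/- eyes, 7.06 in eys-/- eyes and 6.23 in wildtype eyes. It followed pvalb3 in having only its eys-/- reading above the level, and its lrp5-/- minus eys-/- difference was -1.07.

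For the neuromuscular junction, 3 of 11 named genes were measured in each comparison, and 0 of 3 passed 1.5-fold in any. Others, such as chrne and musk, lay below the level. The measured chrna1, the muscle acetylcholine receptor alpha subunit, differed by -0.13 between lrp5-/- and eys-/- eyes. Other heavy chains and actins likewise gave 0 of 3 past 1.5-fold. Among genes of muscle energy metabolism, 1 of 13 measured genes was higher and 0 lower in double heterozygote eyes, 0 of 14 were higher and 2 lower in lrp5-/- eyes, and 1 of 14 was higher and 0 lower in eys-/- eyes, counts of 2 genes at most. The higher one in eys-/- eyes was the AMP deaminase gene ampd3b at 0.62. Its wildtype reading of 6.13 lay below the level, so ampd3b entered that comparison only through its eys-/- reading of 6.75. The lower ones in lrp5-/- eyes were ak1, an adenylate kinase, at -0.62 and the glycolytic gene gapdh at -0.59, and the higher one in double heterozygote eyes was phkg1a, a phosphorylase kinase subunit, at 0.96. The muscle enolase gene eno3 lay at -0.52 in lrp5-/- and -0.56 in eys-/- eyes, both short of 1.5-fold.

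Of the myogenic transcription factors, 2 of 6 measured genes were higher in double heterozygote eyes and 2 of 7 in lrp5-/- eyes, where 3.91% and 2.07% of all genes were higher. Against eys-/- eyes, lrp5-/- eyes had 2 of 7 higher as well, where 3.38% of all genes were. In each case these were mef2ca and mef2cb, which are also used by neurons. In eys-/- eyes 1 of 6 was higher, prdm1a, which directs slow fibre fate in zebrafish embryos, at 0.62. The gene mef2ca read 9.71 in double heterozygote eyes, 8.58 in lrp5-/- eyes, 7.07 in eys-/- eyes and 6.77 in wildtype eyes. The double heterozygote array was the highest and the wildtype array the lowest. In smooth muscle and pericytes, 10 genes were measured, and smtnb, encoding a smoothelin, differed from wildtype by -1.54 in double heterozygote, -1.22 in lrp5-/- and -0.65 in eys-/- eyes. The other genes of that list that passed 1.5-fold in these comparisons were limited to cnn1b, a calponin, at 0.65 in double heterozygote eyes. Its wildtype reading of 6.41 lay below the level, so cnn1b entered there only through its double heterozygote reading of 7.05.

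**Figure D4:**
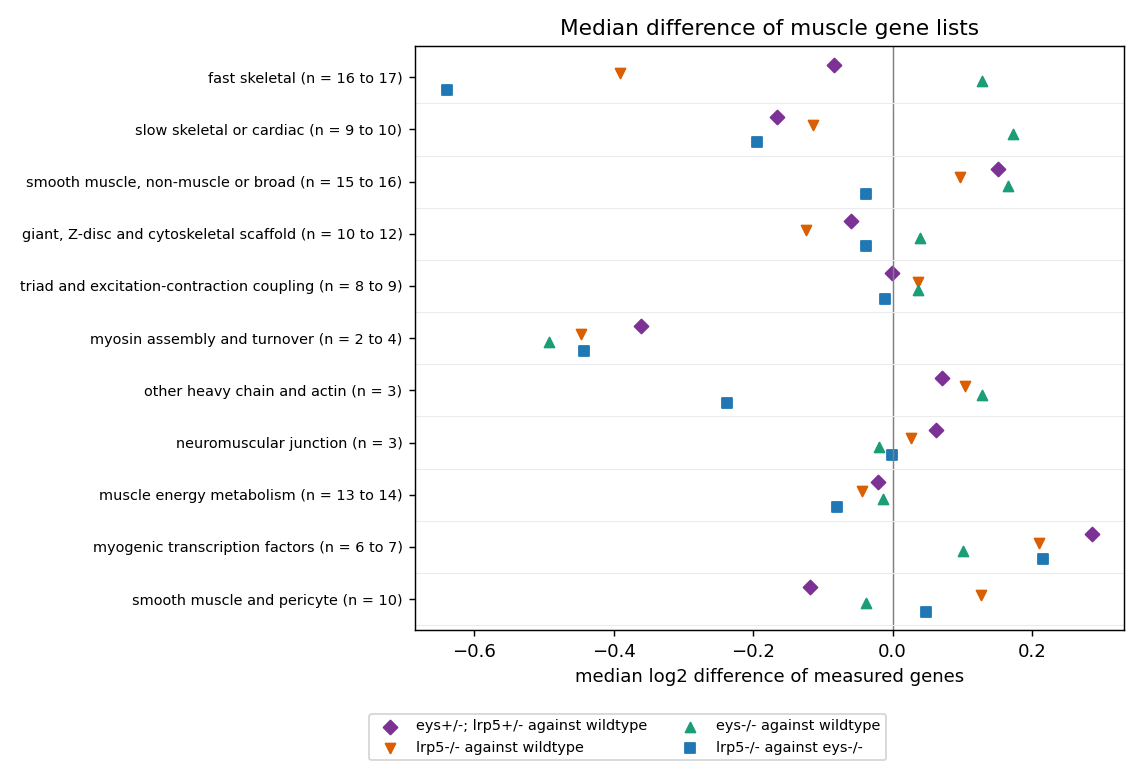
Median log2 difference (horizontal axis) of the measured genes of each list (vertical axis, with the number measured) in the 4 comparisons, 1 symbol per comparison. The fast skeletal list lies at -0.64 between lrp5-/- and eys-/- eyes. The medians of the Z-disc, triad, junction and energy lists lie within 0.13 of 0 in each comparison. Of 22 named triad genes 8 or 9 were measured, and of 11 junction genes 3. Muscle genes such as cacna1sa, stac3, chrne and musk lay below the level, so these medians do not cover them. Classes and lists were chosen with earlier results of these data known.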

How the data were processed

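Total RNA from whole eyes was extracted using TRI Reagent, and biotin-labelled cDNA made with the WT PLUS kit was hybridised, per the labels' protocols. The deposited values are log2 signals, made by the authors with RMA in Transcriptome Analysis Console 4.0, per the submitters' processing notes. They were used as deposited, and the array medians were equal within 0.03. The genome build was not given in the sources used here. Probe sets were named from a platform annotation of 2013: 20806 of 75212 named 1 gene, 855 several and 53551 none, and only those naming 1 gene were used for genes. Symbols were set beside RefSeq by gene identifier.

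Differences of log2 signal were computed with Python 3.11.15, pandas 2.3.3 and numpy 2.4.6 for 4 comparisons. No test was made, since there was 1 array per genotype and their number limits the precision. The counting step was tested on simulated data with planted fold changes and noise narrower than the spread between these arrays. That test gives no rate of false calls for these data. Shown with their readings or range are the 3 highest members of each role, the 5 largest differences each way in each comparison, members past 1.5-fold, mb, and measured parvalbumins, creatine kinases and calcium channels, stores and pumps, and of other lists up to 4 genes a comparison. The members, classes and lists were chosen with earlier results of these data known. The probe sets' sequences and positions were not used.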

Additional observations from a re-analysis of the deposited data

How the results depend on the processing

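No paired analysis was possible because there was 1 array per genotype. Over 9 other settings, the median of the muscle genes in double heterozygote against wildtype eyes, 0.10, changed sign in some. It came to -0.024 with no filter on level and to -0.0029 with the mean of a symbol's probe sets. It was -0.15 with only the fast and the slow or cardiac classes. The last choice moved the median of lrp5-/- against wildtype eyes to -0.38. With no filter on level, double heterozygote eyes had 3 genes higher and 7 lower than wildtype by 1.5-fold, lrp5-/- eyes 8 lower and eys-/- eyes 5 higher, and 30 of 39 fast genes were lower in lrp5-/- than in eys-/- eyes (alternatives for the fast genes and named genes were chosen after seeing the data). With the second array replaced by an average of the 3 arrays other than the first, double heterozygote eyes had 0 higher and 1 lower. Under that setting eys-/- eyes had 2 lower, and lrp5-/- eyes had 0 higher and 4 lower. The lrp5-/- counts are then the same whichever array was second, so they are no contrast with eys-/- eyes alone. At 2-fold, double heterozygote eyes had 0 higher and 0 lower, lrp5-/- eyes 1 lower, eys-/- eyes 0 higher and 1 lower, and lrp5-/- against eys-/- eyes 0 higher and 1 lower. With only the fast and the slow or cardiac classes, 0 were higher in double heterozygote eyes and 0 in lrp5-/- against eys-/- eyes. With both arrays required to reach the level, lrp5-/- against eys-/- eyes had 1 higher. The causes of these changes were not tested, beyond the fewer or more genes that each choice admits. No named gene past 1.5-fold changed sign, but 16 of their values came short of 1.5-fold under some setting, 14 of them with that average, among them mb, ckma, tnnc2.1 and mylpfa; ckma in eys-/- eyes came to -0.58 once the trend with level was removed. With 1 array per genotype, a reading that deviates for technical reasons cannot be told apart from a difference between genotypes or between extracts. Counts and medians with no filter on level rest in part on the 60 of 105 genes below the level on every array. The share of all genes past 1.5-fold was worked out only under the main filter. Counts with no filter, with the average of 3 arrays or with both arrays required are therefore read against no background.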

Other observations

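Some muscle probe sets name several genes and were left out above. There were 8, and 3 of them cover fast myosin heavy chain copies. The probe set shared by myhz1.2 and myhz1.1 read 7.65 in double heterozygote eyes, 7.79 in lrp5-/- eyes, 8.01 in eys-/- eyes and 7.54 in wildtype eyes. The probe set shared by myhz2 and myhz1.3 read 6.60 in double heterozygote eyes, 6.66 in lrp5-/- eyes, 7.03 in eys-/- eyes and 6.64 in wildtype eyes. That shared by myhz1.1l, zgc:66156 and LOC100537594 read 6.37 in double heterozygote eyes, 6.29 in lrp5-/- eyes, 6.89 in eys-/- eyes and 6.51 in wildtype eyes. On each of the 3 the eys-/- array was the highest, and lrp5-/- minus eys-/- differences were -0.22, -0.37 and -0.59. The probe set shared by tpm1 and zgc:171719 gave a lrp5-/- minus eys-/- difference of -0.18, and that shared by pvalb7 and ncf4, below the level on every array, gave -0.55. The probe set shared by tnnt2c and si:dkey-222f8.3 went the other way, at 0.08, and read 6.64 in double heterozygote eyes, 6.40 in lrp5-/- eyes, 6.32 in eys-/- eyes and 6.77 in wildtype eyes. That shared by mybpc2a and zgc:136545 gave -0.23 and that shared by aven and ryr3 gave -0.01, both below the level on every array.

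Symbols with more than 1 probe set numbered 8, and the further probe sets lay below the level on every array. That of myh7 carries another gene identifier. Between lrp5-/- and eys-/- eyes the further probe set of actn3b differed by -0.10, that of pvalb9 by -0.22 and that of acta1b by 0.14.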
